A study of Mus musculus with 6 samples.

Results

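The 42 genes described here encode parts of the axoneme, the microtubule machine of the sperm tail, together with factors that assemble it: the dynein arms, the radial spokes, the central apparatus, the rulers and regulatory complex that place the arms, and the assembly factors of the arms. They were chosen by name, with earlier results of these data known, and are 42 of the 53700 genes counted. All 42 were found (Dnai1 and Dnai2 under the older symbols Dnaic1 and Dnaic2), and all 42 passed the filter on low counts. Total RNA of whole testes was sequenced from mice at postnatal day 45. Of the 6 libraries, 3 came from mice wild type for Msl3 (WT 1 to WT 3) and 3 from mice with a floxed Msl3 allele labelled as conditional knockouts (cKO 1 to cKO 3). Both groups carry the strain label Msl3em1Forni/C57BL/6J. The recombinase that acts on the floxed allele, the cells it acts in and the deleted exons are not given in the sources used here.

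In a motile axoneme, outer and inner dynein arms on each microtubule doublet walk along the neighbouring doublet and bend the tail. Each arm is built around heavy chains, very large motor proteins, to which intermediate and light chains are bound. Radial spokes carry signals from the central apparatus to the arms, and the nexin-dynein regulatory complex links the doublets. In the testis these genes are transcribed mainly in meiotic and post-meiotic germ cells, and sperm and the cilia of airway or brain use partly different paralogues of the same motor.

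The targeted gene was read first. Msl3 was counted at 16.0, 18.9 and 15.9 CPM in WT 1 to WT 3 and 16.0, 14.8 and 15.8 CPM in cKO 1 to cKO 3. The groups overlapped, and the difference was -0.12 ± 0.09 (edgeR adjusted p = 0.551). The deleted exons are not known here and reads outside them are counted too, so this whole-gene count checks nothing about the labels, and the groups are named as labelled. A library held 56991431 to 73766444 reads assigned to genes. With 21902 genes tested by edgeR, 4 passed an adjusted p of 0.05. Levels below are CPM, reads relative to scaled library size, log2 fold changes are cKO against WT, and ± is the SD for levels and the SE for log2 fold changes, with n = 3 mice a group. In bulk RNA, a lower or higher share of cells of a type and less or more RNA per cell cannot be told apart.

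No member passed the adjusted threshold in edgeR's quasi-likelihood test, where 0.0183% of all genes tested did, and none passed in DESeq2, where 1.78% of the genes with an adjusted p did. The lowest edgeR adjusted p among the members was 0.296, for Ccdc40. At an unadjusted edgeR p under 0.05 there were 15 of the 42 members, all higher in cKO, against 7.33% of all genes tested in that direction. In the other direction there was no member, against 6.54% of all genes. DESeq2 gave 9 members at an unadjusted p under 0.05, also all higher in cKO, against 6.37% of all genes in that direction. The log2 fold change was above 0 for 36 of the 42 members, against 50.7% of all genes. Its median over the members was 0.14, beside 0.003 over all genes. The 3 cKO libraries lay above the 3 WT libraries for 6 members, Drc1, Drc7, Ccdc40, Cfap43, Cfap44 and Lrrc6, against 10% of all genes. No member had all cKO libraries below WT, which 8.85% of all genes did.

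**Figure D1:**
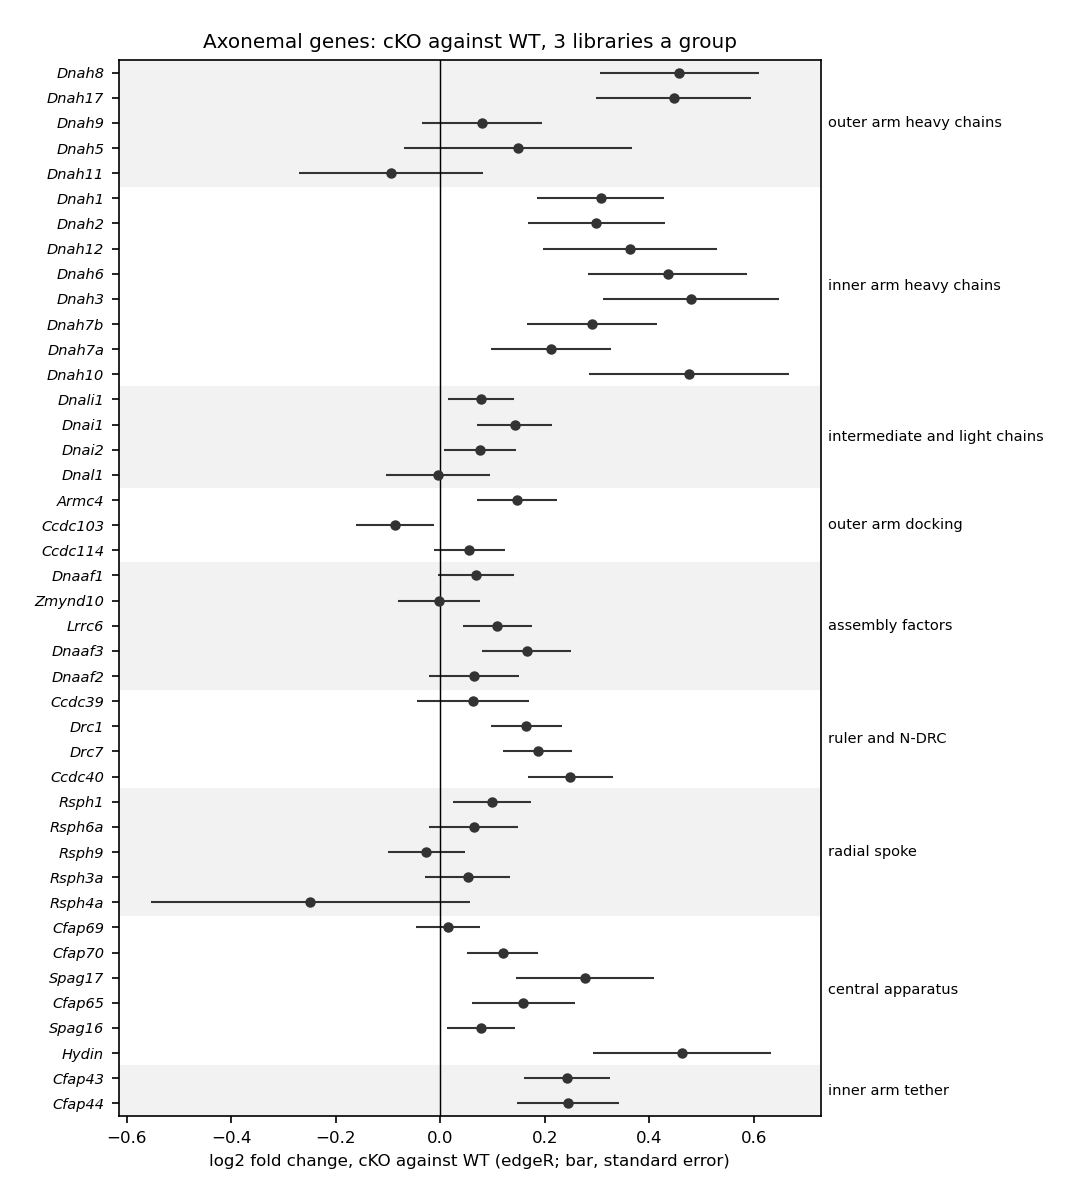
Log2 fold change of cKO against WT (horizontal axis, with SE, n = 3 mice a group) for each of the 42 members, grouped by axoneme part (N-DRC, nexin-dynein regulatory complex). The inner arm heavy chains lie between 0.21 and 0.48, while the radial spoke genes lie between -0.25 (Rsph4a, 11 to 21 reads a library) and 0.10. The median transcript is 12483 bases in the former part and 2225 bases in the latter.

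The 3 knockout libraries did not behave alike. The 13 heavy chain genes together took 2571, 2833 and 2487 CPM in WT 1 to WT 3, and 2562, 4427 and 3537 CPM in cKO 1 to cKO 3. The sum in cKO 1 thus lay inside the WT range, and cKO 2 was the highest library, followed by cKO 3. Single heavy chain genes followed the same order: for 10 of the 13, cKO 2 was highest and cKO 3 second, and cKO 1 lay above the WT range for 0 of the 13. For the other 29 members the sums were 6040, 5704 and 5757 CPM in WT and 6226, 6701 and 6083 CPM in cKO. Among these 29, cKO 1 lay above the WT range for 19 and cKO 3 for 9. Over all 42 members, 28 had their highest level in cKO 2, 10 in cKO 1, and 1 in each of the other 4 libraries.

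Levels can be compared between genes only per length, and RPKM, CPM per kilobase of the longest transcript, was used for this. The WT mean ran over 4 orders of magnitude among the members. Rsph1, which encodes a protein of the radial spoke head, was the most abundant at 683 ± 53.7 RPKM, followed by the assembly factor gene Dnaaf1 at 363 ± 19.8 RPKM. Next came another assembly factor gene, Zmynd10, at 167 ± 13.9 RPKM. A further 35 members lay between 4.16 RPKM (Dnal1) and 97.0 RPKM (Rsph6a). Under 1 RPKM were 4 members: Dnah9 at 0.499, Dnah5 at 0.129, Rsph4a at 0.0856 and Dnah11 at 0.0646 RPKM. These 4 are paralogues of members that were abundant in the same libraries, and they are known from the cilia of other tissues.

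**Figure D2:**
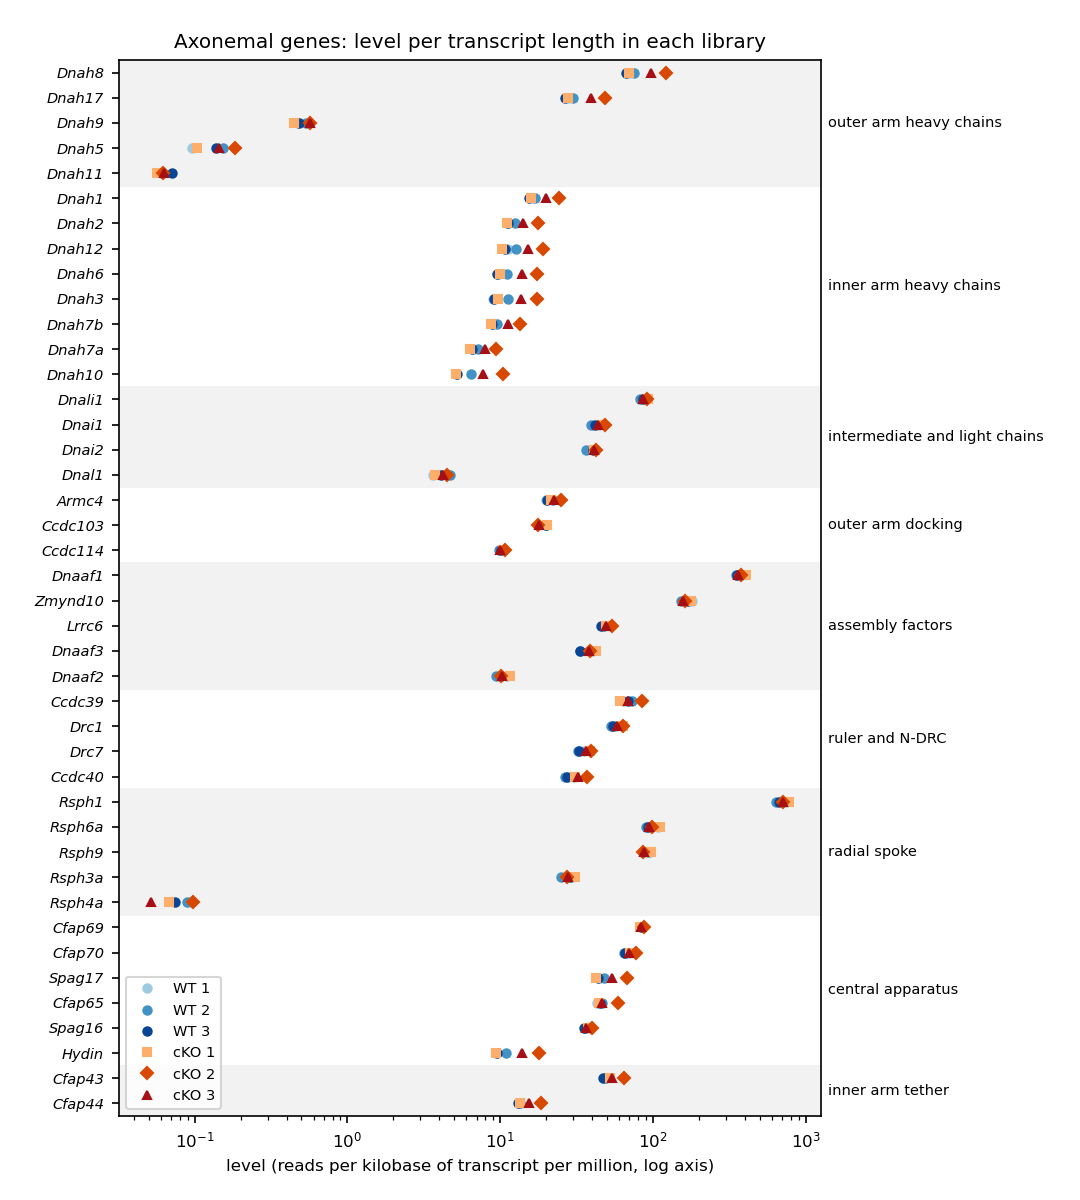
Level of each member in each of the 6 libraries in RPKM (logarithmic axis), ordered by axoneme part. Dnah5, Dnah9, Dnah11 and Rsph4a lie below 1 RPKM in all libraries, far below their testis paralogues Dnah8, Dnah17 and Rsph6a.

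Outer arm heavy chains form the motor that drives beat frequency. The testis pair Dnah8 and Dnah17 and the cilium genes Dnah5, Dnah9 and Dnah11 are counterparts of each other. Coordinates here are those of the GENCODE genes on mm10. Dnah8 (chr17:30624354-30877365, + strand) had 1155, 1254 and 1104 CPM in WT 1 to WT 3 and 1157, 2045 and 1623 CPM in cKO 1 to cKO 3, with means of 1171 ± 76.6 and 1608 ± 444 CPM. Dnah17 (chr11:118021723-118130634, - strand) had 416, 451 and 400.3 CPM in WT 1 to WT 3 and 417, 725 and 585 CPM in cKO 1 to cKO 3, with means of 422 ± 25.7 and 576 ± 154 CPM. For both genes cKO 1 lay within the WT range, while cKO 2 and cKO 3 were above all WT libraries, so the groups overlapped. The log2 fold change of Dnah8 was 0.46 ± 0.15 (edgeR adjusted p = 0.298). That of Dnah17 was 0.45 ± 0.15 (edgeR adjusted p = 0.298). Neither gene passed.

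The cilium counterparts were low, with Dnah5 and Dnah11 near the floor and Dnah9 at 387 to 480 reads a library. Dnah5 had 1.497, 2.39 and 2.16 CPM in WT 1 to WT 3 and 1.63, 2.88 and 2.26 CPM in cKO 1 to cKO 3. Dnah9 had 6.58, 7.40 and 6.66 CPM in WT 1 to WT 3 and 6.17, 7.84 and 7.86 CPM in cKO 1 to cKO 3. Dnah11 had 0.868, 0.863 and 0.997 CPM in WT 1 to WT 3 and 0.795, 0.876 and 0.890 CPM in cKO 1 to cKO 3. The groups overlapped for all of them, with log2 fold changes of 0.15 ± 0.22 (edgeR adjusted p = 0.806) for Dnah5, 0.08 ± 0.11 (edgeR adjusted p = 0.802) for Dnah9 and -0.09 ± 0.18 (edgeR adjusted p = 0.852) for Dnah11. In RPKM, Dnah8 stood 480 to 723 times above Dnah5 in the 6 libraries, and Dnah17 stood 55.4 to 85.1 times above Dnah9 and 377 to 778 times above Dnah11. The coding sequences of these pairs are 63.1%, 67.0% and 61.5% identical, and they share no stretch of the read length of 75 bases. Reads of Dnah11 need care, because 84.2% of the reads over this gene lay on the other strand, where Cdca7l overlaps it. Only the strand of the gene was used.

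The promoters of the abundant outer arm pair are shown because both genes kept the same order of libraries. They run from 250 bases before to 50 bases after the RefSeq start (RefSeq, GRCm38.p6), 5′ to 3′ on the strand of the gene. The Dnah8 window is chr17:30626686-30626985 and the Dnah17 window chr11:118129170-118129469. Both starts lie inside the GENCODE gene, downstream of its outermost 5′ end. Capitals mark a match to the X-box (GTNNCC, then any 3 bases, then GNAAC), the motif of the RFX transcription factors of ciliated cells.

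Dnah8: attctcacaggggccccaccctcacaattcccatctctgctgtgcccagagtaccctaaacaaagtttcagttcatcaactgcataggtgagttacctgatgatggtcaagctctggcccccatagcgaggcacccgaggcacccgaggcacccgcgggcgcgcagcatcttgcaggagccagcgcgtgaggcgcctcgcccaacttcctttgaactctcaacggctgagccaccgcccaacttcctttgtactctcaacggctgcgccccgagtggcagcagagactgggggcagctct

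Dnah17: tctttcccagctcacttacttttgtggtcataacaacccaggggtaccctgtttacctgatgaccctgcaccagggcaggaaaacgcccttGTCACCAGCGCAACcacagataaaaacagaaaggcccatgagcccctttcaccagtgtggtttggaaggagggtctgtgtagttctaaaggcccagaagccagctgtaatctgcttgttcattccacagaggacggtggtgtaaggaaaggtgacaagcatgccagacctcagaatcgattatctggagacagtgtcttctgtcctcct

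Dnah17 holds 1 match in its window and Dnah8 none. A match is a description of the letters and not a site, and a missing match says only that these letters are not in this window.

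Inner arm heavy chains set the shape of the bend. All 8 members had a log2 fold change above 0, with a median of 0.33, and 7 of the 8 had an unadjusted edgeR p under 0.05, beside the 7.33% given above. Of all 13 heavy chains, 9 were higher at that p, but 3 with DESeq2, 1 with edgeR's robust quasi-likelihood and 0 without cKO 2. In the same order, 7.33%, 6.37%, 7.14% and 4.29% of all genes were higher at that p. Of the 390 other genes with a transcript of at least 10 kb, 40.5% were higher at that p in the reported edgeR fit. No inner arm gene had groups that did not overlap. Dnah1 (chr14:31260375-31323896, - strand), whose loss is known to cause malformed sperm flagella, was the most abundant of them at 16.1 ± 0.764 RPKM. Its levels were 207, 217 and 198 CPM in WT 1 to WT 3 and 204, 311 and 255 CPM in cKO 1 to cKO 3, and its log2 fold change was 0.31 ± 0.12 (edgeR adjusted p = 0.313). Dnah3 (chr7:119922671-120095280, - strand) had the lowest unadjusted p of the group, with 109.6, 139 and 111 CPM in WT 1 to WT 3 and 118, 214 and 169 CPM in cKO 1 to cKO 3. The WT libraries of Dnah3 differed among themselves, WT 2 being above cKO 1, and cKO 2 and cKO 3 were above all of them. Its log2 fold change was 0.48 ± 0.17 (edgeR adjusted p = 0.304).

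The other inner arm genes repeated this order of libraries. Dnah10 had 72.1, 89.8 and 73.5 CPM in WT 1 to WT 3 and 72.2, 148 and 108 CPM in cKO 1 to cKO 3. Dnah6 had 124, 141 and 120.1 CPM in WT 1 to WT 3 and 126, 220.0 and 175 CPM in cKO 1 to cKO 3. Dnah2 and Dnah12 reached 242 and 230 CPM in cKO 2, from WT means of 159 ± 10.4 and 139 ± 12.6 CPM. Log2 fold changes were 0.48 ± 0.19 (edgeR adjusted p = 0.315) for Dnah10 and 0.43 ± 0.15 (edgeR adjusted p = 0.305) for Dnah6. For Dnah2 and Dnah12 they were 0.30 and 0.36, with edgeR adjusted p = 0.348 and 0.360. In each of these genes cKO 1 lay within or below the WT range.

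Dnah7a and Dnah7b are near-copies on chromosome 1, with a further near-copy, Dnah7c, counted beside them. Their coding sequences are 97.0% identical, and 27.8% of the 75-base stretches of the Dnah7a transcript and 34.3% of those of Dnah7b also occur in another gene. A uniquely mapped read cannot come from such a stretch, so the counts of both genes are lower than the transcripts alone would give and are uncertain. The first stretch below is the same in Dnah7a, Dnah7b and Dnah7c and could give no unique read. The others are the same start of the coding sequence in each gene (GENCODE M21, coding bases 1 to 75 of Dnah7a and Dnah7c and 133 to 207 of Dnah7b), and capitals mark the positions that are not alike in all 3 genes.

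Dnah7 shared stretch: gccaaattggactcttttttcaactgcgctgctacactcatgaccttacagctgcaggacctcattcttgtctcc

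Dnah7a: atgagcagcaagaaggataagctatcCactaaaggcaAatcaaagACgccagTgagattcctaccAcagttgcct

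Dnah7b: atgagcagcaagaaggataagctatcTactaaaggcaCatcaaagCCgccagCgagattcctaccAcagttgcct

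Dnah7c: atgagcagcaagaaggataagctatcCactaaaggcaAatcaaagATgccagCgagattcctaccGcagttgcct

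Dnah7a had 81.0, 88.2 and 80.0 CPM in WT 1 to WT 3 and 77.2, 115 and 97.0 CPM in cKO 1 to cKO 3. Dnah7b had 111, 118 and 109 CPM in WT 1 to WT 3 and 107, 167 and 139 CPM in cKO 1 to cKO 3. In both genes cKO 1 was below all WT libraries and cKO 2 was highest. Log2 fold changes were 0.21 ± 0.12 (edgeR adjusted p = 0.432) and 0.29 ± 0.12 (edgeR adjusted p = 0.335). The ratio of Dnah7a to Dnah7b in RPKM was 0.737, 0.751 and 0.740 in WT 1 to WT 3 and 0.723, 0.690 and 0.703 in cKO 1 to cKO 3. It was lower in each cKO library than in any WT library, a difference that was not tested. Dnah7c, which is not a member, had 92.4, 93.2 and 87.4 CPM in WT 1 to WT 3 and 88.9, 140.3 and 114 CPM in cKO 1 to cKO 3, with a log2 fold change of 0.33 ± 0.13 (edgeR adjusted p = 0.312).

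**Figure D3:**
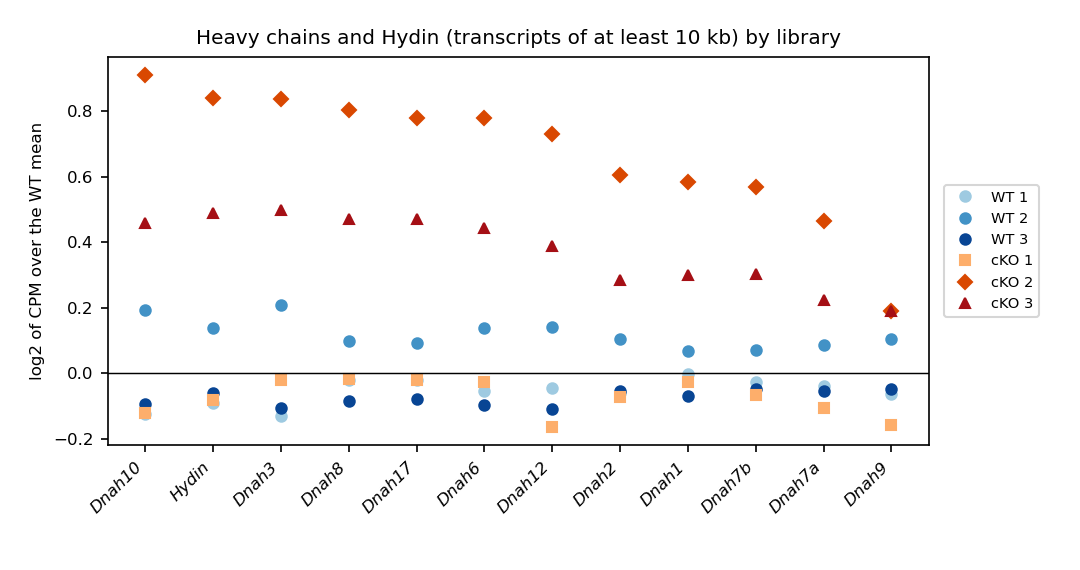
Log2 of CPM over the WT mean (vertical axis) in each of the 6 libraries, for the heavy chain genes and Hydin, whose transcripts are at least 10 kb long. Dnah5 and Dnah11 are left out for their low counts; cKO 2 is highest for 11 of the 12 genes drawn and cKO 1 lies among or below the WT libraries.

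Intermediate and light chains hold the heavy chains and regulate them. The 4 members had a median log2 fold change of 0.08, and none had an unadjusted p under 0.05. Dnali1 (chr4:125055338-125065703, - strand), a light chain of inner arms, was the most abundant at 85.1 ± 2.04 RPKM, with 185, 177 and 182 CPM in WT 1 to WT 3 and 196, 194 and 184 CPM in cKO 1 to cKO 3. Dnai1 (chr4:41569775-41638158, + strand), an outer arm intermediate chain, had 111, 98.3 and 105 CPM in WT 1 to WT 3 and 117, 121 and 109.6 CPM in cKO 1 to cKO 3. The groups overlapped for both genes, with log2 fold changes of 0.08 ± 0.06 (edgeR adjusted p = 0.603) for Dnali1 and 0.14 ± 0.07 (edgeR adjusted p = 0.395) for Dnai1. Dnai2, the other outer arm intermediate chain, had a log2 fold change of 0.08, and Dnal1, an outer arm light chain, of -0.004. For Dnal1, 35.2% of the reads over the gene lay on the strand of the overlapping Pnma1.

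Docking genes fix the outer arm to the doublet. Armc4 was the highest of them at 20.8 ± 1.21 RPKM and had 69.7, 77.7 and 71.2 CPM in WT 1 to WT 3 and 75.6, 87.7 and 78.8 CPM in cKO 1 to cKO 3. Its groups overlapped, since cKO 1 was below WT 2, and its log2 fold change was 0.15 ± 0.08 (edgeR adjusted p = 0.408). Ccdc114, a coiled-coil protein of the docking complex, had a log2 fold change of 0.06, and Ccdc103, which stabilises the attached arm, of -0.09. Neither passed, and the median of the part was 0.06.

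Assembly factors fold and join dynein subunits in the cytoplasm before transport into the tail. Dnaaf1 (chr8:119575235-119598454, + strand) had 1087, 980.1 and 1007 CPM in WT 1 to WT 3 and 1155, 1060.0 and 1008 CPM in cKO 1 to cKO 3. Dnaaf3 (chr7:4522933-4532453, - strand) had 89.0, 73.99 and 73.9 CPM in WT 1 to WT 3 and 94.6, 86.6 and 84.3 CPM in cKO 1 to cKO 3. In both genes cKO 1 was the highest library and the groups overlapped, an order unlike that of the heavy chains. Log2 fold changes were 0.07 ± 0.07 (edgeR adjusted p = 0.715) for Dnaaf1 and 0.17 ± 0.09 (edgeR adjusted p = 0.403) for Dnaaf3. The chaperone partners Zmynd10 and Lrrc6 stood at -0.003 and 0.11, and Dnaaf2 at 0.07. Lrrc6 had all cKO libraries above WT, at 95.8 to 99.8 CPM in WT and 102.1 to 112 CPM in cKO, and edgeR adjusted p = 0.482. For Dnaaf2, 37.4% of the 75-base stretches are shared with other genes, 20.6% with the overlapping Gm49383, so its count is uncertain. No assembly factor had an unadjusted p under 0.05.

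The ruler pair Ccdc39 and Ccdc40 sets the repeat along the doublet at which arms and spokes attach, and Drc1 and Drc7 belong to the nexin-dynein regulatory complex. Ccdc39 (chr3:33812362-33844310, - strand) had 229, 262 and 249 CPM in WT 1 to WT 3 and 218, 307 and 248 CPM in cKO 1 to cKO 3. Ccdc40 (chr11:119228572-119265238, + strand) had 151, 133 and 136 CPM in WT 1 to WT 3 and 154, 184 and 162 CPM in cKO 1 to cKO 3. The groups of Ccdc39 overlapped, with cKO 1 the lowest of all libraries. Those of Ccdc40 did not, although cKO 1 was close to WT 1. Log2 fold changes were 0.06 ± 0.11 (edgeR adjusted p = 0.841) and 0.25 ± 0.08 (edgeR adjusted p = 0.296), so partners of one filament differed in this measure; that difference between the genes was not tested.

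Drc1 and Drc7 had cKO 1 and cKO 2 at similar levels. Drc1 ran from 131 to 142.0 CPM in WT and from 144 to 157 CPM in cKO, with a log2 fold change of 0.16 ± 0.07 (edgeR adjusted p = 0.324). Drc7 ran from 92.0 to 99.5 CPM in WT and from 103 to 111 CPM in cKO, with 0.19 ± 0.07 (edgeR adjusted p = 0.306). The groups did not overlap in either gene, and neither passed. These genes have short transcripts of 2471 and 2832 bases.

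Radial spoke genes gave the smallest median of all parts, 0.05, with 3 of 5 members above 0 and none at an unadjusted p under 0.05. Rsph1 (chr17:31255019-31277383, - strand) had 884, 758 and 801 CPM in WT 1 to WT 3 and 924, 849 and 842 CPM in cKO 1 to cKO 3. Its log2 fold change was 0.10 ± 0.07 (edgeR adjusted p = 0.577). Rsph6a (chr7:19054690-19074447, + strand), the spoke head gene of sperm, had 253, 212 and 219.6 CPM in WT 1 to WT 3 and 261, 234 and 222 CPM in cKO 1 to cKO 3. Its paralogue Rsph4a, which serves the spoke heads of cilia, had 0.340, 0.324 and 0.274 CPM in WT 1 to WT 3 and 0.247, 0.357 and 0.188 CPM in cKO 1 to cKO 3, from only 11 to 21 reads a library. The groups overlapped in these genes, and cKO 1 was the highest library for Rsph1 and Rsph6a. Log2 fold changes were 0.06 ± 0.09 (edgeR adjusted p = 0.779) for Rsph6a and -0.25 ± 0.31 (edgeR adjusted p = 0.756) for Rsph4a. Rsph6a stood 1014 to 1825 times above Rsph4a in RPKM, with 60.2% identical coding sequence. Rsph9, another spoke head gene, stood at -0.03. Rsph3a, a spoke stalk gene, stood at 0.05; 66.4% of its 75-base stretches are shared with other genes, foremost Rsph3b, so its count is uncertain.

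Central apparatus genes build the projections of the central pair of microtubules. The median log2 fold change of the 6 members was 0.14, and 1 had an unadjusted edgeR p under 0.05. That gene was Hydin (chr8:110266977-110610253, + strand), whose very large product is part of a projection of the central pair, with 148, 173 and 151 CPM in WT 1 to WT 3 and 149, 281 and 221 CPM in cKO 1 to cKO 3. Again cKO 1 lay within the WT range and cKO 2 and cKO 3 above it, and the log2 fold change was 0.46 ± 0.17 (edgeR adjusted p = 0.306). Cfap69 (chr5:5579278-5664239, - strand) was the most abundant at 83.8 ± 0.716 RPKM, with 414, 412 and 419 CPM in WT 1 to WT 3 and 408, 436 and 415 CPM in cKO 1 to cKO 3. All its libraries lay close together, and the log2 fold change was 0.01 ± 0.06 (edgeR adjusted p = 0.940). Spag17, a large projection protein, had 342 to 377 CPM in WT and 332, 535 and 425 CPM in cKO 1 to cKO 3, with 0.28 ± 0.13 (edgeR adjusted p = 0.376). Spag16, Cfap70 and Cfap65 had log2 fold changes of 0.08, 0.12 and 0.16 and did not pass.

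Cfap43 and Cfap44 form the tether that holds an inner arm motor to the doublet. Cfap43 (chr19:47736857-47919287, - strand) had 295, 288 and 280.3 CPM in WT 1 to WT 3 and 313, 386 and 322 CPM in cKO 1 to cKO 3. Cfap44 (chr16:44394796-44482428, + strand) had 88.1, 89.1 and 85.96 CPM in WT 1 to WT 3 and 89.2, 121 and 101 CPM in cKO 1 to cKO 3. In both genes all cKO libraries lay above all WT libraries, although cKO 1 of Cfap44 was barely above WT 2. Cfap43 had a log2 fold change of 0.24 ± 0.08 (edgeR adjusted p = 0.299) and Cfap44 of 0.24 ± 0.10 (edgeR adjusted p = 0.313).

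The 10 members with the largest log2 fold changes all have a transcript of at least 10 kb. The 14 members with a transcript of at least 10 kb, the 13 heavy chains and Hydin, had a median of 0.33, with 10 at an unadjusted edgeR p under 0.05. The other 4 of the 14 are Dnah5, Dnah9, Dnah11 and Dnah7a. The 28 shorter members had a median of 0.08, with 5. Drc1 and Drc7 of these have a transcript of 2 to 4 kb, where 3.97% of other genes were higher in cKO at that p. Ccdc40, Cfap43 and Cfap44 have one of 4 to 8 kb, where 16.7% of other genes were. Among all other tested genes with a transcript of at least 10 kb (390 genes), 40.5% were higher in cKO at that p, 88.7% had a log2 fold change above 0, and the median was 0.23. Their median level relative to the WT mean was -0.04 in cKO 1, 0.40 in cKO 2 and 0.26 in cKO 3, the same order of libraries as in the heavy chains. The 3466 other genes with a transcript under 1 kb had a median of -0.15, with 23.7% above 0. The correlation of log2 transcript length with the log2 fold change had r = 0.37 and rho = 0.45 across 21851 genes, and r = 0.65 and rho = 0.60 across the 42 members. These are descriptions across genes, which share the same 6 libraries.

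**Figure D4:**
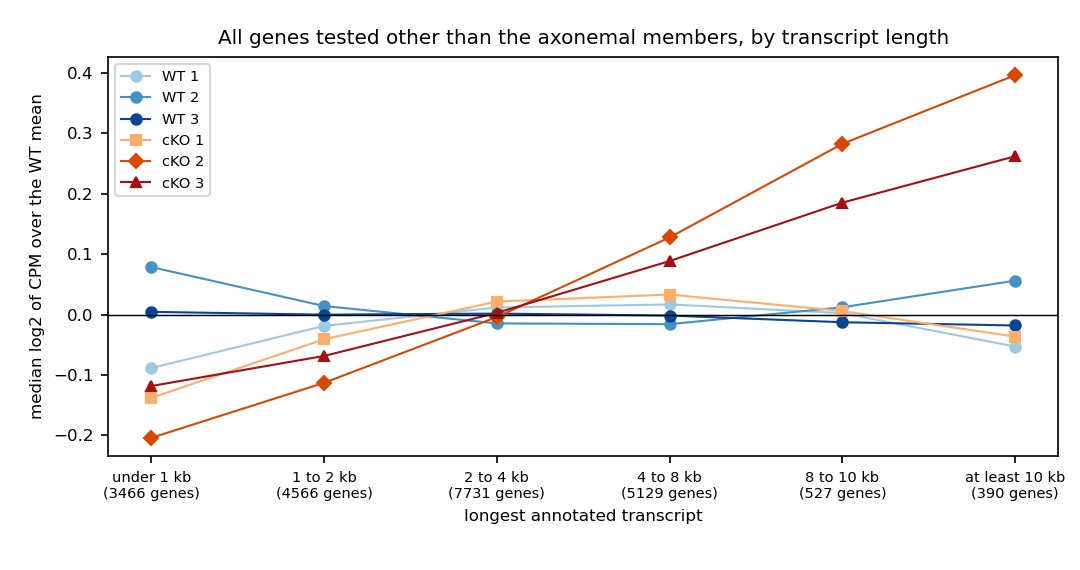
Median log2 of CPM over the WT mean (vertical axis) in each of the 6 libraries, for all genes tested other than the members, in 6 classes of longest annotated transcript (horizontal axis, with the number of genes). In the longest class cKO 2 stands at 0.40 and cKO 3 at 0.26, and cKO 1 at -0.04 lies among the WT libraries.

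With a smooth offset for GC content and transcript length fitted within each library, the median of the 13 heavy chains was 0.07, and that of the other 29 members was 0.08. Dnah8 then stood at 0.18, Dnah17 at 0.15, Hydin at 0.17 and Dnah3 at 0.24, with edgeR adjusted p = 0.522, 0.669, 0.628 and 0.539. The outer arm heavy chain median was -0.11, beside 0.15 without the offsets. It is a median over 5 genes, among them Dnah5, Dnah9 and Dnah11, whose levels were low, while Dnah8 and Dnah17 stayed positive. No member passed the adjusted threshold, which 0.032% of all genes did. At an unadjusted edgeR p under 0.05 were 8 members, all higher in cKO, against 3.90% of all genes in that direction, and 1 of the 8 was a heavy chain. What lies behind the relation of length to the cKO libraries was not tested.

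The count of calls turned on cKO 1. Without cKO 1, 13 members passed the adjusted threshold of edgeR, where 2.82% of all genes did: Dnah8, Dnah17, Dnah1, Dnah2, Dnah3, Dnah6, Dnah7a, Dnah7b, Dnah10, Dnah12, Spag17, Hydin and Cfap44, all higher in cKO. Their edgeR adjusted p ran from 0.0058 (Dnah17) to 0.0426 (Dnah7a), and the log2 fold change of Dnah8 was then 0.65. Without cKO 2, no member passed and the median of the heavy chains was 0.14. Of the members, 3 then had an unadjusted edgeR p under 0.05, all higher in cKO, beside 4.29% of all genes in that direction, and none of them was a heavy chain. With all 6 libraries but no filter on low counts, 11 members passed, which is all of those named but Dnah7a and Cfap44, where 2.07% of 36605 genes did.

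**Figure D5:**
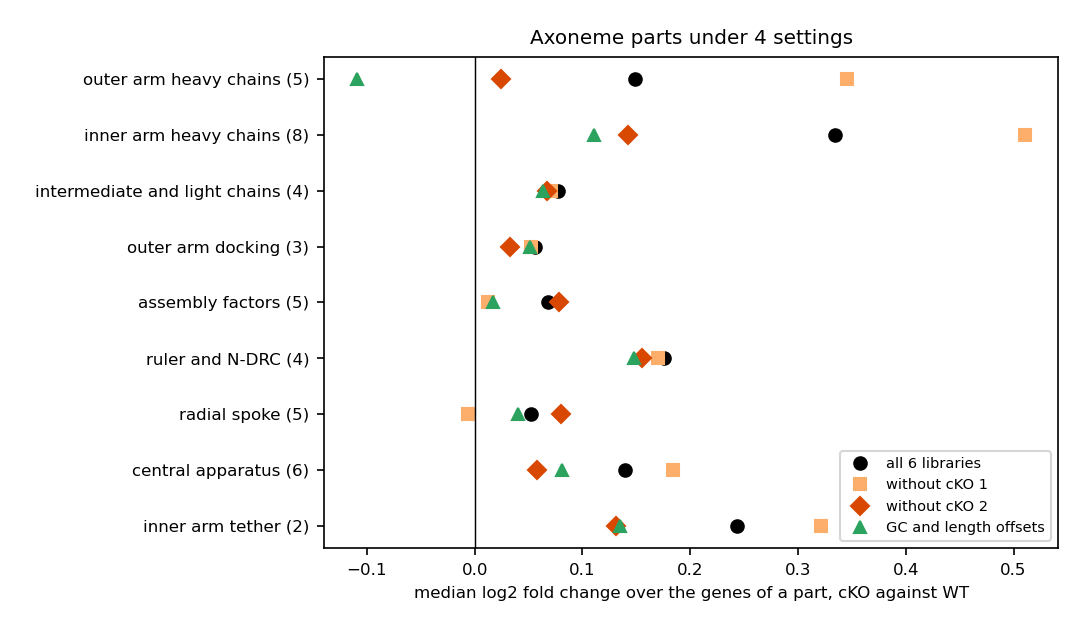
Median log2 fold change of cKO against WT (horizontal axis) over the genes of each axoneme part (number of genes in brackets; N-DRC is the nexin-dynein regulatory complex), with all 6 libraries, without cKO 1, without cKO 2, and with GC content and length offsets. The inner arm heavy chains move from 0.33 with all libraries to 0.51 without cKO 1 and 0.14 without cKO 2, while the intermediate and light chains stay between 0.06 and 0.08.

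Letters of known ciliary motifs were read in the RefSeq windows of the 35 members that have one. The X-box as spelled out above, searched on both strands, was in 7 of the 35 (20.0%), beside 2.17% of all 32851 windows. They are shown with 10 bases on either side, 5′ to 3′ on the strand of the gene, because they occur in genes of several axoneme parts; capitals mark the match, which for Dnaaf2, Zmynd10, Hydin and Cfap44 was found on the opposite strand.

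Dnah17: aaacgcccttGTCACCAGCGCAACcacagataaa

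Ccdc114: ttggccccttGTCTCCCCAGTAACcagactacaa

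Dnaaf2: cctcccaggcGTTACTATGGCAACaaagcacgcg

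Zmynd10: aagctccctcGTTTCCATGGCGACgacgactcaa

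Spag16: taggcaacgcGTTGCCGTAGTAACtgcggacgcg

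Hydin: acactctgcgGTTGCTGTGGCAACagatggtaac

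Cfap44: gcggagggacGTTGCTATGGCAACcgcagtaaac

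They lie at chr11:118129355-118129388, chr7:45924190-45924223, chr12:69198423-69198456, chr9:107547294-107547327, chr1:69826857-69826890, chr8:110266946-110266979 and chr16:44394762-44394795 in that order. The 7 genes come from 5 parts of the axoneme, and their median log2 fold change was 0.08, beside 0.16 for the 28 members with a window and no match. The shorter motif GTTGCC was in 11 of the 35 windows (31.4%, beside 12.5% of all windows), and in Dnaaf2, Spag16, Hydin and Cfap44 it overlapped the X-box match. TGACGTCA, the cAMP response element, was in the Dnah6 window (2.86%, beside 1.79%). TGTTTAC, a forkhead motif, was in those of Cfap43 and Dnah17 (5.71%, beside 3.65%).

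Further axonemal genes were read in the same way. Of 105 further genes in 7 lists, 101 were found and 100 tested. None passed the adjusted threshold, and the median log2 fold change was 0.08. At an unadjusted edgeR p under 0.05, 24 of the 100 were higher and 4 lower, against 7.33% and 6.54% of all genes tested. Per list, the counts at that p were 4 higher and 1 lower of 14 other dynein arm and docking genes, 1 and 2 of 12 assembly factors, 8 and 0 of 23 regulatory complex, ruler and spoke genes, and 4 and 1 of 15 central apparatus genes. They were 4 and 0 of 6 tether and inner arm genes, 2 and 0 of 17 microtubule inner proteins and 1 and 0 of 13 transcription regulators. All cKO libraries lay above WT for 25 of the 100 and below WT for 8, against 10% and 8.85% of all genes. The genes shown next by library each had the lowest unadjusted p of their list, which makes groups without overlap likelier among them. Cfap251, a gene of the calmodulin- and spoke-associated complex, had 74.02, 73.3 and 69.0 CPM in WT 1 to WT 3 and 77.5, 109.7 and 90.5 CPM in cKO 1 to cKO 3. Its groups did not overlap, and its log2 fold change was 0.36 ± 0.11 (edgeR adjusted p = 0.288). Rfx2, an RFX factor of spermatids, had 321, 300.1 and 304 CPM in WT 1 to WT 3 and 327, 387 and 339.7 CPM in cKO 1 to cKO 3. Its groups did not overlap either, with 0.19 ± 0.08 (edgeR adjusted p = 0.315).

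Pih1d3, an assembly factor gene, had 11.2, 12.99 and 11.5 CPM in WT 1 to WT 3 and 9.17, 10.4 and 10.2 CPM in cKO 1 to cKO 3. All cKO libraries lay below all WT libraries, and the log2 fold change was -0.26 ± 0.09 (edgeR adjusted p = 0.305). In the other direction, Spef2 of the central apparatus had 66.8, 65.4 and 61.7 CPM in WT 1 to WT 3 and 69.6, 90.3 and 75.5 CPM in cKO 1 to cKO 3. Cfap57, an inner arm gene, had 229, 206 and 212 CPM in WT 1 to WT 3 and 244, 272 and 244 CPM in cKO 1 to cKO 3. Mns1, a microtubule inner protein gene, had 304, 291 and 278 CPM in WT 1 to WT 3 and 326, 371 and 331 CPM in cKO 1 to cKO 3. In each of these all cKO libraries lay above all WT libraries, with log2 fold changes of 0.28 ± 0.09 (edgeR adjusted p = 0.290) for Spef2, 0.23 ± 0.07 (edgeR adjusted p = 0.288) for Cfap57 and 0.24 ± 0.07 (edgeR adjusted p = 0.288) for Mns1. None of them passed.

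Marker genes were read for the cells that could carry these transcripts. No marker passed the adjusted threshold of edgeR. Round spermatid markers had a median log2 fold change of -0.18, with 4 of 6 lower at an unadjusted edgeR p under 0.05. Of all genes tested, 6.54% were lower and 7.33% higher at that p. The summed level of the round spermatid markers was 1032 to 1139 CPM in WT and 978 to 1015 CPM in cKO. Elongating spermatid markers had a median of -0.13, with 1 of 6 lower. Their sum was 17222 to 18896 CPM in WT and 14653 to 17676 CPM in cKO. It was lowest in cKO 2, where the heavy chains were highest. These markers have short transcripts, with a median of 614 bases. Their median log2 level relative to the WT mean was -0.23 in cKO 2, beside -0.20 for other genes with a transcript under 1 kb. Round spermatid markers, with a median transcript of 1917 bases, stood at -0.18, -0.21 and -0.17 in cKO 1 to cKO 3 by the same measure. Other genes with a transcript of 1 to 2 kb stood at -0.04, -0.11 and -0.07. Medians were 0.12 for 7 spermatogonial and -0.06 for 7 spermatocyte genes, with none at that p. Among somatic lists, medians were 0.09 for Sertoli cells, -0.14 for Leydig cells, -0.04 for peritubular myoid cells and -0.08 for macrophages, with 2 higher, 1 lower, 1 higher and 1 higher at that p. Of the 8 markers of multiciliated cells, such as those of the efferent ducts, Mcidas, Cdhr3, Tmem212 and Pax8 had 0 to 6 reads in any library, while Foxj1, Deup1, Fam183b and Ccno were counted at 206 reads or more. The sum of the 8 was 427 to 462 CPM in WT and 447 to 477 CPM in cKO. The part of any marker list in the levels of the members was not tested.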

How the data were processed

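Per the labels, total RNA of whole testes was prepared with a column kit and read as single-end 75 bp reads. The deposited values are raw counts of reads per gene for 6 libraries, in the layout of STAR's gene count output, which counts uniquely mapped reads. STAR, HTSeq, DESeq2 and the build mm10 are named in the submitters' processing notes, without versions or roles. The deposited counts on the opposite strand, which held 96.0% to 96.2% of the reads of both strand columns, were used as deposited. Summary lines naming no gene held 14.8% to 16.7% of a library's reads and were left out. Assigned reads were 58945376, 63473858 and 61662073 in WT 1 to WT 3, and 73766444, 56991431 and 58451999 in cKO 1 to cKO 3, so that genes of a few reads carry large counting error.

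Symbols, coordinates and the longest transcript of each gene came from GENCODE M21 (mm10). edgeR 4.0.16 in R 4.3.3 was run over the whole table: genes were kept by filterByExpr (minimum count 10), libraries were scaled by TMM, and cKO was compared with WT by the two-sided quasi-likelihood F test. The p-values were adjusted by Benjamini-Hochberg over the 21902 genes kept, and 0.05 was the threshold. SE was derived from the F statistic. Coding sequences were aligned with MAFFT 7.526. The procedure was tested on simulated data. These counts were drawn for each gene alone, without the relation of transcript length to library seen in the real counts, so recovery there can differ. Of 200 genes changed by a log2 of 0.5, 50.5% were recovered, and 13 of 114 calls were false. Of 200 genes changed by a log2 of 1, 83.5% were recovered, and 20 of 187 calls were false. In both cases the share of false calls was above the threshold of 0.05. With no gene changed, 1 gene was called. The members and lists were chosen with earlier results of these data known. Values in every library are given for Msl3, for the most abundant member per length and the member of lowest p in each axoneme part, for paralogues, and for the gene of lowest p in each further list; other members shown by library were added after their values were seen. Alternatives were RLE scaling, library totals, 2 other filters, a robust quasi-likelihood fit, a replicate block, unstranded counts, DESeq2 1.42.0, a threshold of 0.1, loess offsets (span 0.3) and each library left out. Loess offsets for length alone and for GC content alone were chosen after seeing the data. Replicates are separate mice.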

Additional observations from a re-analysis of the deposited data

How the results depend on the processing

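Settings are compared with the values above: 0 members past the adjusted threshold, 15 at an unadjusted p under 0.05, 6 with groups that did not overlap and a median log2 fold change of 0.14. Without a filter on low counts, 11 members passed. Leaving out 1 library at a time gave 0 to 13 members past the threshold, 13 of them without cKO 1. The members at an unadjusted p under 0.05 numbered 2 (without WT 3) to 19 (without cKO 1, 18 of them higher in cKO), with 3 without cKO 2 and 9 without cKO 3; the share of all genes at that p was 6.36% without WT 3, 17.1% without cKO 1, 8.44% without cKO 2 and 10.04% without cKO 3. The members with no overlap between groups numbered 5 (without WT 3) to 22 (without cKO 1), with 15 without WT 1, and 11 without WT 2 and without cKO 3. With 2 libraries against 3, 23.5% (without WT 3) to 37.5% (without WT 1) of all genes had no overlap, 34.1% without cKO 1, beside 18.9% with all 6 libraries. With an unadjusted p under 0.05 were 6 members under robust quasi-likelihood, 9 with DESeq2, 8 with GC content and length offsets and 8 with length offsets alone, where 13.7%, 11.9%, 9.56% and 9.57% of all genes had that p, beside 13.9% in the fit reported above. Length offsets alone gave 10 members with no overlap, 7 of them higher in cKO, beside 14.7% of all genes. The median of the members was 0.075 under both length offsets. That of the outer arm heavy chains was -0.11, beside 0.15 in the fit reported above. Dnah8 and Dnah17, which hold most reads of that part, stayed positive with GC content and length offsets. No member was called in the fit reported above, so it held no called direction that could be reversed. Some signs changed: 34 to 37 members had a log2 fold change above 0, depending on the setting, beside 36 in that fit. RLE scaling, library totals, at least 10 reads in every library, unstranded counts, GC content alone and a threshold of 0.1 gave 0 members past the threshold. The cause of these differences was not tested. The labels do not say whether the replicate numbers pair the mice. Deviations of same-numbered libraries correlated at 0.35, 0.26 and -0.05, and those of differently numbered libraries at -0.34 to 0.11. With the numbers as a replicate block, 0 members and 49 of all genes passed, and the lowest edgeR adjusted p of a member was 0.0539. At an unadjusted edgeR p under 0.05 were then 19 members, all higher in cKO, beside 9.97% of all genes in that direction. Depth limits Rsph4a, Dnah5 and Dnah11, which had 11 to 161 reads a library.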

Other observations

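Some members share reads with transcripts on the other strand. Of the reads over the gene, 14.7% for Dnaaf3 and 6.85% for Dnaaf2 lay on the strand of the overlapping Gm15873 and 9330151L19Rik. With unstranded counts, the log2 fold change was -0.10 for Dnah11, -0.02 for Dnal1 and 0.15 for Dnaaf3, beside -0.09, -0.004 and 0.17 with counts of the gene's own strand.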
